A study of Homo sapiens with 15 samples.

Results

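Olfactory receptors are G-protein-coupled receptors that bind odorants in the cilia of olfactory sensory neurons. Each neuron is known to express a single receptor allele, and in other tissues the genes are largely silent. The coding part of most of them is 1 exon, and the genes lie in clusters, of which the largest in humans are on chromosome 11. In mouse olfactory neurons the silent receptor genes are known to carry the heterochromatin marks H3K9me3 and H4K20me3, which were not among the targets measured here. Polycomb silencing works through other enzymes: EZH2, the catalytic subunit of Polycomb repressive complex 2, places H3K27me3, and PHC1 belongs to Polycomb repressive complex 1.

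The olfactory receptor genes were taken as the rows of the deposited tables whose gene number has a symbol of the form OR, family number, subfamily letters and member number, with or without P for pseudogene. This gave 67 of 14432 genes. RefSeq types 57 of them as protein coding and 10 as transcribed pseudogenes, and 9 symbols end in P. The RefSeq gene table holds 864 symbols of this form, and only the 67 in the deposited tables are described. They lay on 14 chromosomes (hg19), 30 on chromosome 11, 8 on chromosome 19, 7 on chromosome 1 and 6 on chromosome 14. Their gene regions were short, with a median of 1080 bases and a range of 1008 to 17676, against a median of 4754 bases in other genes without nuclear RNA reads. 12 belonged to class I (families OR51 to OR56), the ancient fish-like receptors, and 55 to class II.

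All 15 samples were HEK293T T-REx cells, a human embryonic kidney line in which a transgene can be induced. PHC1 and its mutant form PHC1 dFCS were expressed from a transgene and pulled down on streptavidin beads, so their levels are those of transgene proteins. RNA polymerase II (RNAPII), EZH2 and the histone marks were pulled down with antibodies in cells labelled as having no transgene, and the nuclear RNA and the input came from such cells too. PAR-CLIP, which crosslinks RNA carrying a photoreactive nucleoside to the bound protein, had 2 PHC1 libraries (4-thiouridine, 4SU), 1 RNAPII library with 4SU and 1 with 6-thioguanosine (6SG). ChIP-seq had 2 libraries of PHC1 dFCS, 2 of PHC1, 1 each of EZH2, H3K27me3, H3K4me3 and RNAPII, and 1 of input. Total nuclear RNA-seq had 2 libraries. Cells of PAR-CLIP took up 100 uM of nucleoside and were irradiated at 365 nm, and for ChIP the fixation was 6 minutes in 1% formaldehyde. Nothing in the labels says that replicates came from separate cultures, so their spread may be technical.

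The RNA libraries held 47.2M and 49.6M reads in genes (M, 1e6), so 3 reads, the limit that a count of 0 allows, were worth 0.0636 CPM (counts per 1e6 reads) in replicate 1 and 0.0605 CPM in replicate 2. The 5 ChIP libraries whose reads could be recovered from the deposited scores held 32.5M to 43.1M reads. No gene of the table had fewer than 10 reads at its transcription start site (TSS) in any of these 5 libraries, so a start site with less coverage would not appear. The line's own markers were present: 5 of 6 HEK293 genes in the table, VIM at 908 ± 24.4 CPM among them (SD, n = 2), had at least 1 CPM in both RNA libraries. KRT8 and KRT18 of that list were not among the rows analysed. Of 5 blood, 3 hepatocyte and 4 fibroblast markers in the table, COL1A1 alone reached 1 CPM in both libraries, and HBB had 0 reads.

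Promoter sequence gives the setting of these genes. RefSeq promoter windows of 300 bases (250 before and 50 after the annotated start, build GRCh38.p14) were available for 43 of the 67 genes, in 47 windows. The median window held 1 CpG dinucleotide and 38.3% GC, against 21 CpG and 62.7% GC in 15067 windows of the other genes of the table. A total of 42 of the 47 windows (89.4%) held 3 CpG or fewer, against 14.1% of the other genes' windows. The RefSeq gene was longer than the deposited gene region for 37 of the 67 olfactory receptor genes and within 5 bases of it for 19, so a window can lie away from the start site at which ChIP reads were counted. 4 windows, picked after their values were seen, are shown to make the CpG content visible, with CG in capitals. OR10H2, OR4C13 and OR52K2 have a RefSeq gene of the same length as the deposited region. That of OR10H1, the gene with the second highest H3K27me3 ratio, is 9996 bases longer. An equal length shows that the annotations match, not that either begins where transcription starts. In the windows of OR10H2, OR4C13 and OR52K2 an ATG stands near the end. These annotations may thus begin at the coding part, and the windows need not be promoters.
OR10H1, chr19:15815615-15815914, minus strand: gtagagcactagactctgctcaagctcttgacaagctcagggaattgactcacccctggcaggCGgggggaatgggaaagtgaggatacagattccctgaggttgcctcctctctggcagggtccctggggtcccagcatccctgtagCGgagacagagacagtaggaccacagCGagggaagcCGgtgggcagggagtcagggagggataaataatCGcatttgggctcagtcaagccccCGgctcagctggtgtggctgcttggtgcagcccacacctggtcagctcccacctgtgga
OR10H2, chr19:15727774-15728073, plus strand: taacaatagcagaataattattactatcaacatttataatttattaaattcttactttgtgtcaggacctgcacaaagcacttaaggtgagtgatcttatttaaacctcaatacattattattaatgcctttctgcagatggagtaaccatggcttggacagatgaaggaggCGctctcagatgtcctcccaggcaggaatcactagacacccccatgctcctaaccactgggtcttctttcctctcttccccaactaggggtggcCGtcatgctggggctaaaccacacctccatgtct
OR4C13, chr11:49952141-49952440, plus strand: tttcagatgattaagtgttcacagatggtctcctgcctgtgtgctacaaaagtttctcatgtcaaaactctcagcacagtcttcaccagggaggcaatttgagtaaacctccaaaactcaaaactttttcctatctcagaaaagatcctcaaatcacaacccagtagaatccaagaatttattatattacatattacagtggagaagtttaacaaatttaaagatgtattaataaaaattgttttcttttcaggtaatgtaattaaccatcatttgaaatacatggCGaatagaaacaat
OR52K2, chr11:4449045-4449344, plus strand: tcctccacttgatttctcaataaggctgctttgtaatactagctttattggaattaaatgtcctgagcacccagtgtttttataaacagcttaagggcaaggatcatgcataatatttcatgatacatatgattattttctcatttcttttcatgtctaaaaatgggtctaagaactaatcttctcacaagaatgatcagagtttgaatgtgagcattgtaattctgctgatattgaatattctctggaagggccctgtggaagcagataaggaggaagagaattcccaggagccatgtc
OR10H1 held 6 CpG, OR10H2 held 2, OR4C13 held 1 and OR52K2 held none. The highest count, 39 CpG, was at OR3A2, whose RefSeq gene is 109111 bases longer than its deposited region.

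**Figure D1:**
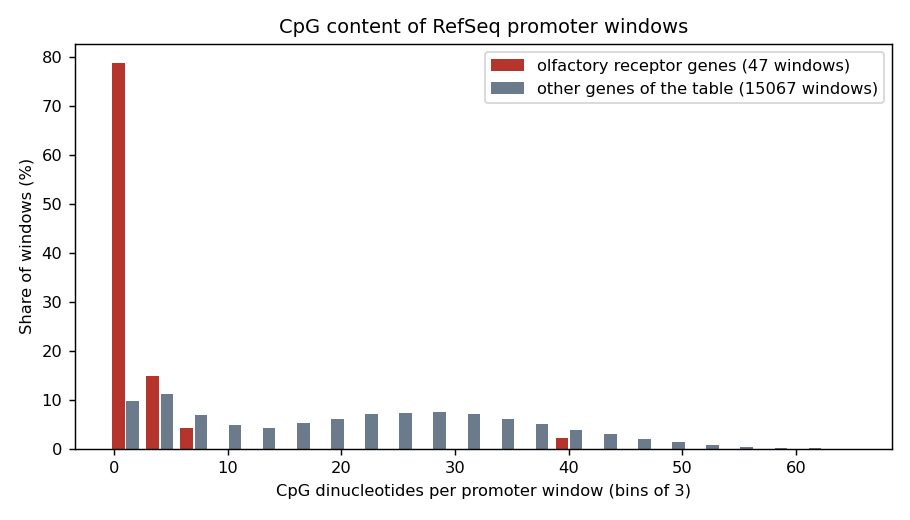
Share of RefSeq promoter windows (vertical axis, percent) by their number of CpG dinucleotides in bins of 3 (horizontal axis), for 47 windows of olfactory receptor genes (red, left in each pair) and 15067 windows of the other genes of the table (grey). The red bars stand at the low end, with a median of 1 CpG against 21, and a single red window lies at 39.

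Short motifs were searched on both strands of the same windows. TAATTA, the core bound by homeodomain factors such as LHX2 and EMX2 that act on receptor promoters in mouse, was present in 12 of 47 olfactory receptor windows (25.5%), 3.26% of the other genes' windows and 4.84% of all 35116 RefSeq windows. TATAAA, the TATA box, was present in 14 (29.8%), 8.94% and 11.5%. CACGTG, the E-box, was present in 1 (2.13%), 8.44% and 7.26%. TAATTA and TATAAA hold no G or C and the windows differ in GC content, whose part in these shares was not tested.

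Nuclear RNA of the olfactory receptor genes was at the floor of the assay. A total of 48 of the 67 genes (71.6%, 95% Wilson interval 59.9 to 81.0) had 0 reads in both libraries, against 5.28% of all genes, and 11 had reads in both. The Wilson interval takes the genes as independent draws, which related genes measured in the same libraries are not. In a bulk sample, fewer cells with a transcript and less of it per cell cannot be told apart. No olfactory receptor gene reached 1 CPM in both libraries, a level that 69.8% of all genes reached. Summed over all 67 genes there were 142 reads in replicate 1 and 119 in replicate 2. Per length this was 0.0206 and 0.0165 CPM per kb of gene region. The exact 95% Poisson intervals were 0.0174 to 0.0243 and 0.0136 to 0.0197. Intervals of this kind cover counting error only. Over all genes the value was 1.18 CPM per kb, which follows from the summed region length alone and is the same in any library. Regions include introns, and whether reads in introns were counted is not known. For the 48 genes at 0 together, a count of 0 allows up to 0.00107 CPM per kb in replicate 1 and 0.00102 in replicate 2. The genes lowest in nuclear RNA could not be ranked, since 48 shared the value 0.

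OR7E14P and OR6A2 stood above the others. They and the genes of the next tier were named after their values were seen. OR7E14P (chr11:17073433-17074591), a transcribed pseudogene of the OR7E subfamily, had 47 reads in replicate 1 and 24 in replicate 2, which is 0.996 and 0.484 CPM, or 0.859 and 0.417 CPM per kb. Together its libraries gave 0.740 ± 0.362 CPM (SD, n = 2), and OR7E copies are so alike that reads may be shared among them. OR6A2 (chr11:6815756-6817139), known as an aldehyde receptor, had 39 and 31 reads, which is 0.827 and 0.625 CPM, or 0.597 and 0.451 CPM per kb. It was the only member with at least 0.5 CPM in both libraries, at a mean of 0.726 ± 0.143 CPM (SD, n = 2). The ranges of these 2 genes overlapped, so their order is not resolved.

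A second tier held between 7 and 18 reads over both libraries. OR7E37P had 7 and 9 reads, OR2B2 7 and 9, OR13A1 7 and 11, OR51E2 5 and 13, OR4C45 11 and 5, OR6W1P 5 and 6 and OR8S1 4 and 3. Per length, OR7E37P and OR2B2 had 0.137 and 0.136 CPM per kb on average. OR13A1 and OR51E2, whose regions are 12955 and 17676 bases long, had 0.0143 and 0.0104. The length is that of the whole region, and whether reads in introns were counted is not known. The lower values of the long regions may thus come from the length alone. OR51E2, known also as PSGR and expressed in prostate, had 0.106 and 0.262 CPM, which is 0.0060 and 0.0148 CPM per kb. The other 10 genes with reads had between 1 and 4 in both libraries together. Among the 9 genes whose symbol ends in P, 3 had 0 reads in both libraries, against 45 of 58 others. The genes with reads also had longer regions, with a median of 1502 bases against 1064 bases for those at 0.

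**Figure D2:**
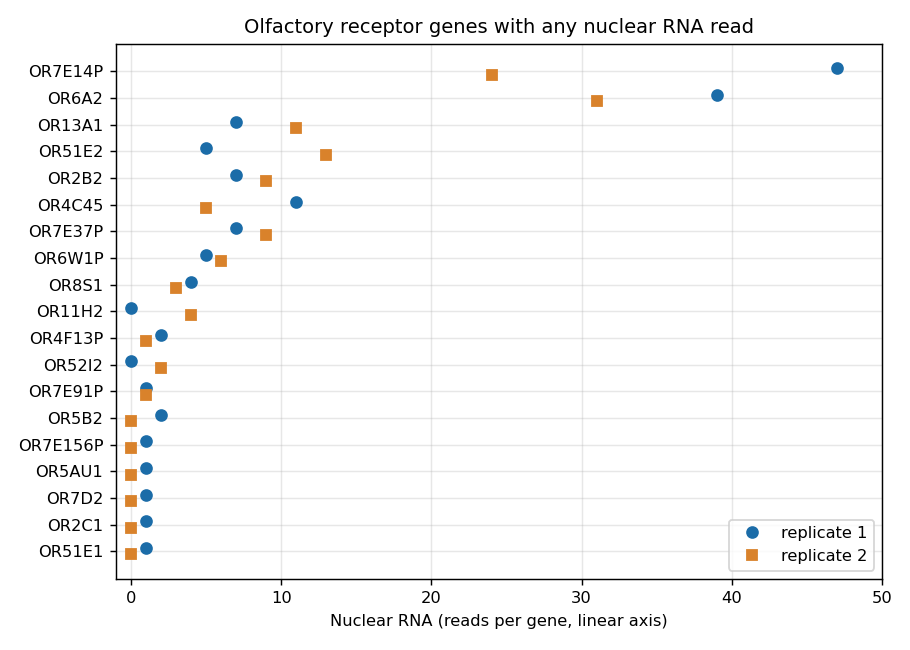
Nuclear RNA reads per gene (horizontal axis, linear) for the 19 olfactory receptor genes with any read, in replicate 1 (blue circles) and replicate 2 (orange squares). OR7E14P and OR6A2 lie at 24 to 47 reads, and the others at 13 or fewer in each library.

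The machinery of an olfactory sensory neuron was not uniformly silent. Of 19 genes listed for that cell, 11 were in the table, 2 had 0 reads in both libraries and 6 had at least 1 CPM in both. CNGA2, the cyclic-nucleotide channel subunit that carries the odour response, and RTP1, which carries receptors to the membrane, had 0 reads. CNGA4 and CNGB1, further subunits of the channel, were at 0.380 ± 0.118 and 0.187 ± 0.0359 CPM (SD, n = 2). The transcription factors LHX2 and EBF1 and the LHX2 cofactor LDB1 were at 6.00 ± 0.447, 21.5 ± 1.41 and 68.7 ± 2.62 CPM, and REEP1 was at 34.0 ± 1.08 CPM. ANO2 and GAP43 were at 7.08 ± 0.449 and 1.43 ± 0.139 CPM, and STOML3 was at 0.144 ± 0.0533 CPM. Factors that act on receptor promoters in olfactory neurons were thus measured in cells whose receptor genes were at the floor. OMP, the marker of mature olfactory neurons, was not among the rows analysed.

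Other chemoreceptor families gave a mixed picture. Of 19 taste, vomeronasal and trace-amine receptor genes in the table, 7 had 0 reads in both libraries and 4 had at least 1 CPM in both. TAAR1, TAAR2, TAAR3P, TAAR5, TAAR6 and TAAR8, of the trace-amine receptor family, all had 0 reads. VN1R1, TAS1R3, TAS2R3 and TAS2R5 averaged 3.20, 2.78, 1.58 and 1.31 CPM. Of 93 keratin, keratin-associated and defensin genes, 47 had 0 reads and 1 had at least 1 CPM in both libraries.

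PAR-CLIP clusters were nearly absent from the olfactory receptor genes. No gene of the 67 had a cluster in both PHC1 libraries, against 71.0% of all genes. PHC1 replicate 1 gave 1 cluster, PHC1 replicate 2 gave none, RNAPII 4SU gave 4 in 3 genes and RNAPII 6SG gave none, and 64 genes had no cluster in any of the 4 libraries. The summed gene regions of the 67 genes were only 145.8 kb, so a count of 0 allows up to 20.6 clusters per Mb. PHC1 replicate 1 had 6.86 clusters per Mb of olfactory receptor region (exact 95% Poisson interval 0.174 to 38.2) and RNAPII 4SU had 27.4 (7.48 to 70.3). Other genes with 0 nuclear RNA reads had 17.1 clusters per Mb in PHC1 replicate 1, 18.7 in PHC1 replicate 2, 7.89 in RNAPII 4SU and 1.35 in RNAPII 6SG. Genes with a mean of 1 CPM or more had 508, 508, 514 and 32.5. The olfactory receptor genes therefore lay below transcribed genes in all 4 libraries, while at this length a difference from other genes without reads was not detectable in any of the 4 libraries. Without the 6 OR7E genes, RNAPII 4SU gave 1 cluster, or 8.08 per Mb (0.205 to 45.0).

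The exceptions were 3 genes, named after their values were seen. OR11H2 (chr14:20181063-20182491) held the single PHC1 cluster, at chr14:20182411-20182457 on the plus strand, 47 bases long with a mean coverage of 12.0 reads. RNAPII 4SU had a cluster at nearly the same place, chr14:20182412-20182454, 43 bases long with a mean coverage of 165 reads. Both ended within 37 bases of the end of the gene region, and PHC1 replicate 2 and RNAPII 6SG had none there. Nuclear RNA at OR11H2 was 0 reads in replicate 1 and 4 in replicate 2. OR7E156P had 2 RNAPII 4SU clusters, with mean coverages of 20.9 and 18.8, and OR7E91P had 1, with 13.0. These OR7E genes had 1 and 2 nuclear RNA reads over both libraries. Coverage is not scaled to depth and is not compared between libraries.

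Clusters were also counted around the genes, over 1313 kb of flanking sequence. For 37 of the 67 genes the RefSeq gene is longer than the deposited region. The flanks can therefore hold other parts of the same genes. Within 10 kb on either side of an olfactory receptor gene region, PHC1 replicate 1 had 59 clusters near 28 genes, PHC1 replicate 2 had 60 near 24, RNAPII 4SU had 37 near 14 and RNAPII 6SG had 2 near 2. Per Mb of flank these were 44.9 clusters in PHC1 replicate 1 (exact 95% Poisson interval 34.2 to 58.0), 45.7 in PHC1 replicate 2 (34.9 to 58.8), 28.2 in RNAPII 4SU (19.8 to 38.8) and 1.52 in RNAPII 6SG (0.184 to 5.50). Compared with these flanks, the gene regions had a lower density in PHC1 replicate 2, where the intervals did not overlap. In the other 3 libraries the intervals overlapped. The RNAPII 4SU density inside the genes was 27.4 per Mb (7.48 to 70.3), from 4 clusters. Without the OR7E genes it was 8.08 (0.205 to 45.0), from 1 cluster. The median coverage of these flanking clusters was 14.8 and 12.4 in the PHC1 libraries, against 14.9 and 15.3 over all their clusters.

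The design sets PHC1 PAR-CLIP beside nuclear RNA and beside RNAPII PAR-CLIP. No olfactory receptor gene had the value of 5 per 1e6 in 2 libraries needed to enter either fit. In the limma fit of PHC1 PAR-CLIP against nuclear RNA, 35.5% of 9362 genes were called higher and 47.1% lower in PHC1 PAR-CLIP. Without the filter on low values, 7 of the 67 were called lower and 0 higher, where 37.8% of all 14432 genes were called lower and 27.3% higher. They were OR6W1P, OR7E37P, OR2B2, OR6A2, OR13A1, OR8S1 and OR7E14P, with adjusted p-values from limma between 0.00574 and 0.0442. All 7 were listed at 0 in both PHC1 libraries, so no fold is given. In RNA, scaled by TMM, the highest of them were OR7E14P with 0.880 per 1e6 in replicate 1 and OR6A2 with 0.550 in replicate 2. PHC1 was listed only where a cluster was called, while RNA was listed for any read. The single PHC1 cluster at an olfactory receptor gene, OR11H2 in replicate 1, was worth 1.49 per 1e6, above the RNA of all 7. These calls therefore cannot tell less PHC1 on RNA from the floor of cluster calling. In the limma fit of PHC1 against RNAPII PAR-CLIP, 0 of 8435 genes passed in either direction (0.0% called, 1844 at an unadjusted p under 0.05). That count of 0 rested on taking both RNAPII libraries as 1 group: with 6SG left out, limma called 2707 genes higher and 2248 lower in PHC1, and with 4SU left out, 4333 higher and 1853 lower, none of them an olfactory receptor gene. Without the filter no olfactory receptor gene was called, the lowest adjusted p among them was 0.776, and 0.215% of all genes were called higher.

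At the start sites, every ChIP target was close to the input. No olfactory receptor gene reached 2 times the input, with 1 CPM added to both, for EZH2, H3K27me3, H3K4me3 or RNAPII. Over all genes 0.0139%, 0.00693%, 58.0% and 18.4% did, so for EZH2 and H3K27me3 that limit is hardly ever met in these libraries. With 1.5 times as the limit, OR10H1 alone passed for H3K27me3, against 0.423% of all genes. With 0.2 CPM added in place of 1, OR51F2, OR10H1 and OR1I1 reached 2 times the input for H3K27me3, against 0.631% of all genes. With nothing added, 5 of 67 reached it for EZH2 (2.06% of all genes), 5 for H3K27me3 (1.86%), 0 for H3K4me3 (62.5%) and 2 for RNAPII (47.5%). The median gene of the 67 had 21 EZH2, 25 H3K27me3, 19 H3K4me3 and 19 RNAPII reads, against 22 input reads. Summed over the 67 start sites there were 1447 EZH2 reads, 1800 H3K27me3 reads, 1304 H3K4me3 reads and 1324 RNAPII reads, against 1417 input reads. Scaled to library size, the sums were 1.15 times the input for EZH2 (exact 95% interval 1.07 to 1.24), 1.14 for H3K27me3 (1.07 to 1.23), 0.830 for H3K4me3 (0.770 to 0.896) and 1.11 for RNAPII (1.03 to 1.20). Each target had a single library, so these intervals hold counting error and no replicate spread.

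The same ratios were taken in other genes of this line. The 714 other genes with 0 RNA reads had sums of 1.13 times the input for EZH2, 1.09 for H3K27me3, 0.882 for H3K4me3 and 1.08 for RNAPII, each inside the counting interval of the olfactory receptor genes. The 10151 genes with a mean of 1 CPM or more had 0.951, 0.711, 8.10 and 2.79. Deposited olfactory receptor start sites thus lacked the H3K4me3 and RNAPII of transcribed genes, and their H3K27me3 ratio was higher than in transcribed genes. For the 37 of 67 genes with a longer RefSeq gene, the counted site may lie away from the annotated promoter, whose marks were then not measured. Whether the annotated start of the others is where transcription starts was not tested. H3K4me3, the mark of active promoters, was above the input at 20 of 67 genes, against 76.5% of all genes, and its 95% counting interval lay above the input at none, against 63.4% of all genes. It lay below the input at 7 genes, among them OR6A2 with 13 H3K4me3 reads against 29 input reads. Of all genes, most of which carry H3K4me3, 1.84% had such an interval. The 5th percentile of the log2 H3K4me3 ratio was -1.05 in the olfactory receptor genes and -0.885 in the 714 other genes with 0 RNA reads. RNAPII was above the input at 40 of 67, against 83.9% of all genes. H3K27me3 was above the input at 36 of 67, against 23.6% of all genes, and EZH2 at 42, against 49.7%. All genes are mostly transcribed, and the 714 other genes with 0 RNA reads were nearer. Their median log2 ratios were 0.0400 for H3K27me3 and 0.173 for EZH2, against 0.110 and 0.173 in the olfactory receptor genes.

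**Figure D3:**
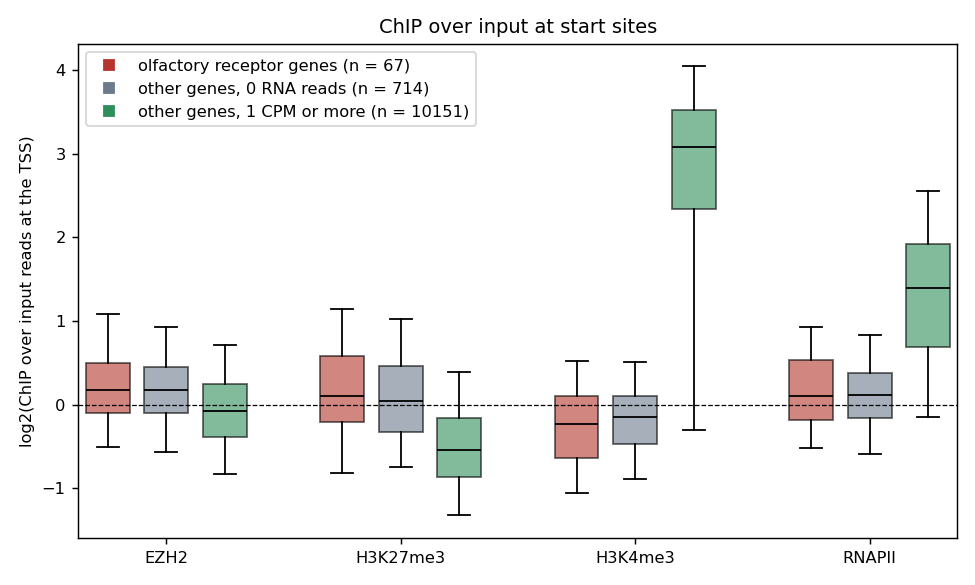
Log2 ratio of ChIP to input reads at the start site, scaled to library size (vertical axis), for 4 targets. In each group the boxes show, from the left, the 67 olfactory receptor genes (red), 714 other genes with 0 nuclear RNA reads (grey) and 10151 genes with a mean of 1 CPM or more (green), with median, quartiles and whiskers from the 5th to the 95th percentile. Red and grey boxes lie near 0 for every target, while green boxes are higher for H3K4me3 and RNAPII and lower for H3K27me3.

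H3K4me3 also followed CpG content in the rest of the table. Other genes whose RefSeq windows held at most 3 CpG had a median H3K4me3 of 0.871 times the input (n = 1163), and those with 4 to 10 had 0.958 (n = 1450). Those with 11 to 20 had 6.50 (n = 1722), and those with 21 or more had 8.78 (n = 6591). The olfactory receptor genes, with a median of 0.852, were at the level of the CpG-poor genes. The share of genes with 0 RNA reads in these classes was 19.1%, 10.9%, 3.43% and 0.759%, so CpG content and transcription moved together here. Whether either sets the H3K4me3 level was not tested.

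Among the olfactory receptor genes, spread beyond counting error was seen mainly for H3K27me3. The variance of reads over the 67 start sites was 4.32 times the mean for H3K27me3, 1.56 for EZH2, 1.56 for H3K4me3, 1.02 for RNAPII and 1.67 for the input, where pure counting gives a value near 1. The 714 other genes with 0 RNA reads had 4.30 for H3K27me3, 1.69 for EZH2 and 1.79 for the input. H3K27me3 thus varied from site to site in both classes alike.

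The 95% counting interval of H3K27me3 lay above the input at 7 of the 67 genes, against 2.92% of all genes. These 7 genes were named after their values were seen. All genes are mostly transcribed genes. The 95th percentile of the log2 H3K27me3 ratio was 1.14 in the olfactory receptor genes and 1.03 in the 714 other genes with 0 RNA reads. OR51F2 (chr11:4842616-4843644), a class I gene, had 37 H3K27me3 reads against 10 input reads, a ratio of 3.33 (1.62 to 7.51). Its input count is the lowest in the table, and it was also the single gene whose RNAPII interval lay above the input, with 22 reads and a ratio of 2.62 (1.19 to 6.20), where 51.6% of all genes had such an interval and 0.312% had one below the input. OR10H1 (chr19:15917817-15918936) had 47 reads against 14, a ratio of 3.02 (1.64 to 5.94), and OR1I1 (chr19:15197877-15198944) had 58 against 22, a ratio of 2.37 (1.43 to 4.07). OR4A15 had 30 against 12 (2.25), OR9Q2 35 against 15 (2.10), OR4C45 51 against 25 (1.84) and OR10H2 42 against 22 (1.72). At the other end OR2B2 had 19 reads against 35, a ratio of 0.488 (0.264 to 0.877), the single gene with its interval below the input, against 14.2% of all genes. OR2B2 lies on chromosome 6 and was among the genes with nuclear RNA reads.

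EZH2 intervals lay above the input at 6 genes, against 2.84% of all genes, namely OR10H1, OR10Q1, OR1I1, OR4A15, OR7G2 and OR8J1. OR10H1, OR1I1 and OR4A15 were therefore on both lists, with 27, 38 and 23 EZH2 reads against 14, 22 and 12 input reads. A low input count raises both ratios at once. The 95th percentile of the log2 EZH2 ratio was 1.08 in the olfactory receptor genes and 0.933 in the 714 other genes with 0 RNA reads. The single EZH2 interval below the input, against 2.19% of all genes, was at OR4C13, with 12 reads against 29 and a ratio of 0.467 (0.217 to 0.943). Between EZH2 and H3K27me3 reads, which share no denominator, Spearman's rho over the 67 genes was 0.34, against 0.46 over the 714 other genes with 0 RNA reads. Between the input and H3K27me3 reads it was 0.29 and 0.35. Between RNAPII and H3K27me3 reads it was 0.35 and 0.34, and between H3K4me3 and H3K27me3 reads 0.29 and 0.36. Over the 67 genes EZH2 thus followed H3K27me3 no more closely than RNAPII did. These correlations run across genes, which are not independent replicates.

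**Figure D4:**
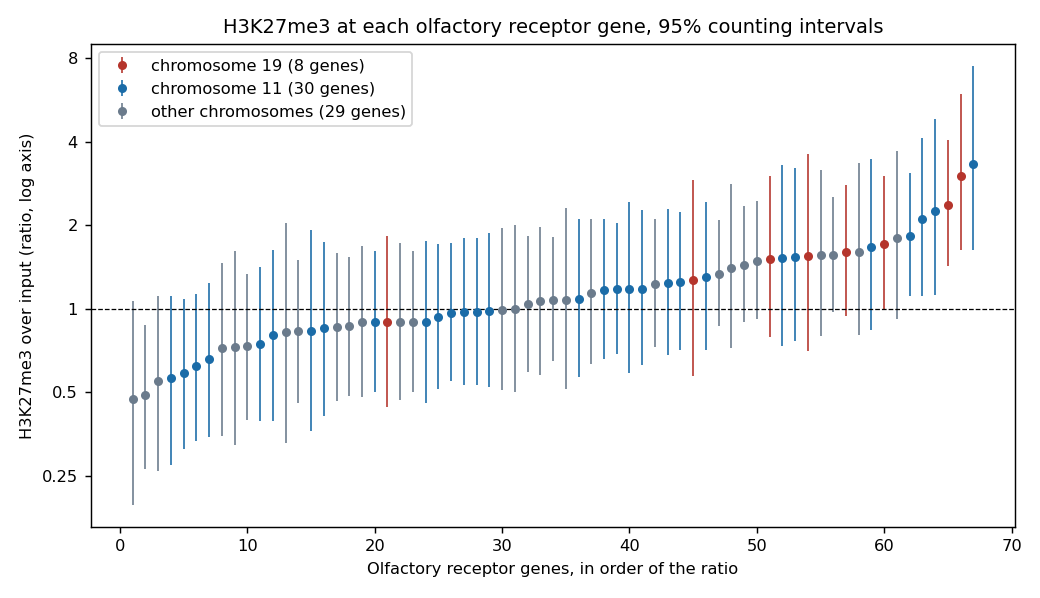
H3K27me3 reads over input reads, scaled to library size (vertical axis, log scale), at the 67 olfactory receptor genes in order of the ratio (horizontal axis), with exact 95% counting intervals. Points are red for the 8 genes of chromosome 19, blue for the 30 of chromosome 11 and grey for the rest, and the dashed line marks the input. The 2 highest points are OR51F2 at 3.33 and OR10H1 at 3.02, and all but 1 of the red points lie above the line.

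H3K27me3 differed by place. The 8 genes of chromosome 19 had a median ratio of 1.58 (range 0.900 to 3.02) and an EZH2 ratio of 1.63 (1.13 to 2.17), whereas the 30 of chromosome 11 had medians of 1.04 for H3K27me3 and 1.06 for EZH2. The chromosome 19 genes also had fewer input reads, with a median of 17 against 21. Such ratios were not confined to chromosome 19. OR6W1P and OR2F1 on chromosome 7 had 1.44 and 1.56, while OR3A2 and OR3A4P on chromosome 17 had 0.862 and 0.900. OR10H1, OR10H2, OR1I1 and OR7A5, which lie together, had 47, 42, 58 and 41 H3K27me3 reads against 14, 22, 22 and 23 input reads. OR7D2, OR7D4, OR7E24 and OR7G2, in another part of the chromosome, had 18, 27, 19 and 17 against 18, 16, 11 and 12. The chromosome 19 medians thus join unlike groups, and the second group had few reads of both kinds. Class I genes had a median H3K27me3 ratio of 0.977 and class II genes of 1.08, and the interquartile range of class I, 0.825 to 1.18, lay within that of class II, 0.883 to 1.53, but for its lower end. The nearest other gene of the table was 8.97 to 2309 kb away, and no olfactory receptor region overlapped one. Near OR10H1, the lncRNA gene UCA1, 20.8 kb away, had 54 H3K27me3 reads against 24 input reads. Near OR1I1, CASP14, 28.8 kb away, had 44 against 20, and near OR4A15, TRIM51HP, 69.7 kb away, had 37 against 17. By contrast MMP26, 165.8 kb from OR51F2, had 23 against 20, and LPXN, 335.4 kb from OR9Q2 and at 16.6 CPM, had 10 against 16. PTPRJ, 174.5 kb from OR4C45 and at 76.5 CPM, had 11 against 21, and CYP4F24P, 30.3 kb from OR10H2, had 28 against 19. Over all 67 genes and their 42 nearest neighbours, which share libraries and in part a neighbour, Spearman's rho between the ratio of a gene and that of its neighbour was 0.26. The 27 olfactory receptor genes whose nearest neighbour had under 1 CPM had a median ratio of 1.23, and the 40 next to a gene of 1 CPM or more had 0.992.

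H3K27me3 was also lower where nuclear RNA reads were found. The 19 genes with reads had a median ratio of 0.866 (interquartile range 0.689 to 1.08), against 1.21 (0.900 to 1.56) in the 48 genes without. H3K27me3 was above the input at 7 of the 19 and at 29 of the 48. OR7E14P and OR6A2, the genes with the most RNA, had 13 H3K27me3 reads against 14 input reads and 19 against 29. OR4C45, with 11 and 5 RNA reads, went the other way at 51 against 25. Input reads were more numerous in the 19 genes, with a median of 26 against 20, and the ratio falls as the input rises. The part of the input in this difference was not tested. H3K4me3 and RNAPII did not mark the 2 genes with the most RNA alike: OR7E14P had 26 H3K4me3 and 21 RNAPII reads against 14 input reads, and OR6A2 had 13 and 20 against 29, and no interval of H3K4me3 or RNAPII above the input was found for either.

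PHC1 itself was at input level. The authors' PHC1 value, in which 2 replicates are joined, was above the input at 33 of 67 olfactory receptor genes, against 51.6% of all genes, with a median of -0.0282 reads per 10M. The authors' PHC1 dFCS value was above the input at 47 of 67, against 75.7% of all genes, with a median of 0.666. dFCS exceeded PHC1 at 52 of 67 genes, against 79.4% of all genes, and the median of dFCS minus PHC1 was 0.638 reads per 10M, against 1.09 over all genes and 0.758 over other genes with 0 RNA reads. Before input subtraction, the median log2 ratio of dFCS to PHC1 was 0.17, against 0.25 over all genes and 0.20 over other genes with 0 RNA reads. The shift towards dFCS was thus seen across the table, and its median was no larger at olfactory receptor genes. No replicate spread can be given for these joined columns.

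Single genes reached higher PHC1 values, named after they were seen. PHC1 was highest at OR10H1, at 3.91 reads per 10M above the input, OR4K1 at 3.77 and OR9Q2 at 3.67, where dFCS stood at 3.66, 3.31 and 3.21. dFCS was highest at OR51F2, at 4.74 against 1.05 for PHC1, OR13C3, at 4.21 against -0.112, and OR4A15, at 4.12 against 2.05. The lowest gene for both was OR6K6, at -2.29 for dFCS and -3.43 for PHC1, and its 37 input reads were the most of any olfactory receptor gene. Since each value has the input taken away, a low or high input count moves all targets of a gene together. OR10H1, OR9Q2, OR4A15 and OR51F2 were also among the 7 genes with the H3K27me3 interval above the input. Spearman's rho between H3K27me3 reads and the PHC1 value before input subtraction was 0.44 over the 67 genes, 0.47 over other genes with 0 RNA reads and 0.31 over all genes.

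**Figure D5:**
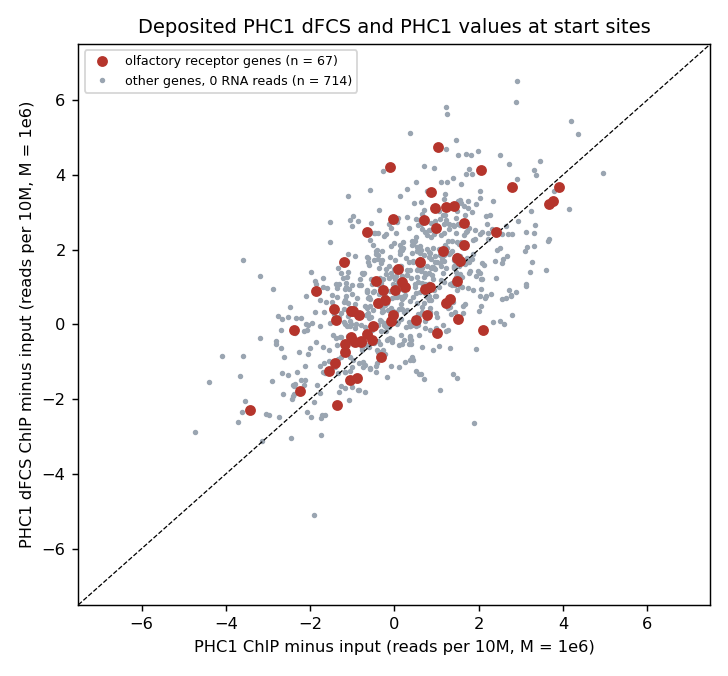
Authors' PHC1 dFCS value (vertical axis) against their PHC1 value (horizontal axis) at start sites, both in reads per 10M after subtraction of the input, for the 67 olfactory receptor genes (red) and 714 other genes with 0 nuclear RNA reads (grey). The dashed line marks equal values, and 52 of the 67 red points lie above it.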

How the data were processed

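Per the submitters' processing notes, reads were aligned to hg19 with Bowtie 0.12.7 (PAR-CLIP), TopHat2 2.0.11 (RNA) and Bowtie2 2.2.3 (ChIP). The cluster caller, read counter and TSS window are not given in the sources used here. The deposited RNA table holds read counts per gene (1 further value column was not used). The deposited PAR-CLIP signal is the authors' mean coverage per base of a cluster. The deposited ChIP score is, from its values, reads per 10M (M, 1e6) minus the input's, and reads of 5 libraries were recovered within a tolerance of 1e-08. The authors' PHC1 and dFCS scores join 2 replicates each. Values before subtraction assume that the same input was taken from them.

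Clusters were given to the gene region holding their midpoint (bedtools 2.31.1 for any overlap). Summed cluster coverage and RNA reads per gene were scaled by TMM (edgeR 4.0.16) and fitted with limma 3.58.1 on log2(value + 1), trend and robust, for genes with 5 per 1e6 in 2 libraries. The threshold was an adjusted p of 0.05, 2-sided. Summed coverage and scores are no counts, so the count tests foreseen for them were not run. The fit recovered fold changes in simulated data for the nuclear RNA comparison and none for RNAPII. Symbols were matched by gene number for 14378 of 14432 genes. The members and lists were chosen with earlier results of these data known. Genes were named if they had 1 CPM of RNA in both libraries, a cluster in both PHC1 libraries, 2 times the input or a call in a fit; others are said to be chosen after their values were seen. Promoter windows are from RefSeq (GRCh38.p14). Alternatives tried were other scalings, pseudocounts, filters, folds, single replicates and the replicate block.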

Additional observations from a re-analysis of the deposited data

How the results depend on the processing

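No alternative put an olfactory receptor gene at 5 CPM, at 1 CPM in either single RNA library or at 1 CPM per kb in both, and 1 gene, OR6A2, passed at 0.5 CPM. With 1 PHC1 library left out, 0 to 1 genes had a PHC1 cluster. With 1.5 in place of 2 times the input, 1 gene (OR10H1) passed for H3K27me3, where a pseudocount of 0.2 CPM gave 3 and no pseudocount gave 5; without a pseudocount 5 passed for EZH2 and 2 for RNAPII. The settings without a pseudocount and without OR7E genes were chosen after seeing the data. H3K4me3 stayed at 0 under all 5 settings tried. In the fit of PHC1 PAR-CLIP against nuclear RNA, 7 olfactory receptor genes were called without the filter and 0 under the other 9 settings; genes called lower ranged from 2779 to 5097 with 1 library left out, and 2 of these libraries, RNA replicates 1 and 2, gave 2779 and 2780. The PHC1 and RNAPII fit called 2707 genes higher and 2248 lower against 4SU alone, 31 higher without the filter, and 0 to 4333 higher and 0 to 1853 lower with 1 library left out, the upper ends without the 4SU library and 4 higher without PHC1 replicate 2; the lone library was then assumed to vary like the replicated group. The cause was not tested. The median of dFCS over PHC1 was 0.64 reads per 10M as a difference of deposited values. The replicate numbers did not pair the samples (correlation of deviations 0.036, and only 2 pairs), and with the replicate block 3255 genes were higher and 4423 lower, 0 of them olfactory receptor genes. Depth limits single sites: H3K27me3 at OR4K1, with 28 against 14 input reads, had a ratio of 1.80 and an interval of 0.916 to 3.70, which holds 1.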
